A study of Mus musculus with 6 samples.

Results

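Ligands and receptors of the tumour necrosis factor (TNF) superfamily were examined in CD8+ T cells sorted from mouse liver. The 10 genes were chosen by name, as 6 ligands (Fasl, Tnfsf10, Tnfsf14, Tnfsf8, Tnfsf11 and Cd40lg) and 4 receptors (Fas, Tnfrsf4, Tnfrsf9 and Tnfrsf18) that T cells are known to use. All 10 were on the array, with 15 probes in all whose gene name in the scanner files equals one of these names. All 10 genes and 13 of the 15 probes were tested, out of 16389 genes and 25103 probes tested across the array. Every mouse was a female on a C57BL/6 background, 13 to 14 weeks old, and carried dnTGFβRII, a dominant negative form of TGF-beta receptor II. The 3 TGC3 samples came from dnTGFβRII mice that also lacked CXCR3 (dnTGFβRII CXCR3-/-), and the 3 TG samples from dnTGFβRII mice with CXCR3. CXCR3 is the chemokine receptor for CXCL9, CXCL10 and CXCL11, and the study asked what it contributes to the activation and proliferation of these cells. Each sample was read on 1 one-colour Agilent array. The transgene is known to be driven by the Cd4 promoter and so to act in T cells, and such mice develop a T cell-mediated inflammation of the bile ducts. All samples carried the transgene, so that the loss of CXCR3 was measured on that background alone.

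As background, the ligands of this superfamily are mostly trimers on the surface of activated lymphocytes and the receptors stand on their targets or on T cells themselves. Receptors with a death domain, such as Fas, recruit FADD and caspase-8 and can kill the cell. Others, such as OX40 (Tnfrsf4), the receptor encoded by Tnfrsf9 and GITR (Tnfrsf18), bind TRAF adaptors and switch on NF-kappaB, which supports the survival and expansion of T cells that have met antigen. Fas ligand on CD8+ T cells is one of their means of killing liver cells.

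The sequences below are those of the regulatory windows of the 3 genes that passed the test of TGC3 against TG (Fasl, Tnfsf8 and Tnfrsf9), shown because no other member passed it. They come from RefSeq annotation of build GRCm38.p6, run from 250 bases before to 50 bases after an annotated start, and are written 5′ to 3′ on the strand of the gene. The table held 9 of the 10 members. Capitals mark matches on either strand to GGAAA (the core bound by NFAT), TGANTCA (AP-1) or a loose NF-kappaB motif (GGG, 5 bases of any kind, then CC).
Fasl, chr1:161788446-161788745, minus strand: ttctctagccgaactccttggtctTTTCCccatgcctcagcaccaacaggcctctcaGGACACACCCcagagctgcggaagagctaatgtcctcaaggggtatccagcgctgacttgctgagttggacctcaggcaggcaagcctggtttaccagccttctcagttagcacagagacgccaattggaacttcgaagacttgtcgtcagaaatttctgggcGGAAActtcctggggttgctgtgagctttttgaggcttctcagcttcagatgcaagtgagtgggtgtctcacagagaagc
Tnfsf8, chr4:63861235-63861534, minus strand: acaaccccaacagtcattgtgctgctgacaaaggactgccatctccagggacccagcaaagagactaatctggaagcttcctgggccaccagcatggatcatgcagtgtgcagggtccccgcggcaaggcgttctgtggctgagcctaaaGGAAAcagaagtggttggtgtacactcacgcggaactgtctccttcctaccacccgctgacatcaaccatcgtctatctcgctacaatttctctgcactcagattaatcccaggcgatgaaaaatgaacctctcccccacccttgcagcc
Tnfrsf9 first start, chr4:150919905-150920204, plus strand: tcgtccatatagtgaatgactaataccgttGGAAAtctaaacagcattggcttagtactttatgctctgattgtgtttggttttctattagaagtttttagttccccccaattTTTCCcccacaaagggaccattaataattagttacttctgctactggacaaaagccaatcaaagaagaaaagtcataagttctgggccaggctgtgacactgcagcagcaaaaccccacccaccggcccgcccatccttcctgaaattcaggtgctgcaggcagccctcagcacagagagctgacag
Tnfrsf9 second start, chr4:150927749-150928048, plus strand: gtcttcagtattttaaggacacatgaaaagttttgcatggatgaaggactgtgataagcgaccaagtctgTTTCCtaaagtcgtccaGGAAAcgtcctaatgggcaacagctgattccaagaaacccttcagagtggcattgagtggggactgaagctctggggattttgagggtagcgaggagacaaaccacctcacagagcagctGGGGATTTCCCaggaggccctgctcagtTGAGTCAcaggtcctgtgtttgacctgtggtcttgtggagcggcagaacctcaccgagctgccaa
The Fasl window held 2 matches to GGAAA and 1 to the NF-kappaB motif, and the Tnfsf8 window held 1 match to GGAAA. The first Tnfrsf9 window held 2 matches to GGAAA, while the second held 3 to GGAAA, 1 to the AP-1 motif and 3 to the NF-kappaB motif, with strands counted separately. The 3 NF-kappaB matches overlap one another in 1 short stretch, starting 43 or 42 bases before the start. The 3 overlaps between NF-kappaB and GGAAA matches all come from 1 GGAAA match in that stretch. GGAAA stood in all 9 member windows examined (1 per gene, the first listed start) and in 61.5% of the 32544 distinct windows of all genes. The second Tnfrsf9 window is thus not in the counts of 9, whereas the windows of all genes take in every listed start. The AP-1 motif stood in 2 of the 9 (Tnfsf14 and Fas) and in 7.79% of all windows, and the NF-kappaB motif in 4 of the 9 and in 51.0% of all windows. These are matches of letters and no binding was measured here.

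Of the 41174 distinct probes, 58.9% to 63.8% lay well above background on a TGC3 array and 60.0% to 61.4% on a TG array. Arrays correlated across genes, which are not independent replicates, at 0.993 to 0.995 within a group and at 0.983 to 0.986 between groups. Cxcr3, the deleted gene, read 23.8, 33.0 and 27.0 intensity units in TGC3 and 68779, 66107 and 73352 in TG, as the labels require. The 2 chains of CD8 were bright in both groups (Cd8a read 94440 to 103427 units in TGC3 and 93787 to 124967 in TG), whereas Cd4 read 32.8 to 33.4 units in TGC3 and 27.3 to 31.9 in TG, and Foxp3, the defining factor of regulatory T cells, was above background on 0 of 6 arrays. The 2 groups were hybridised on different slides, 1 for each genotype, so that slide, scan and genotype cannot be told apart in any difference below. The labels do not state that samples came from different mice, and p-values then measure only the spread between these samples. A lower signal can mean fewer cells that express a gene or less RNA per cell, and these cannot be told apart in RNA of sorted pools.

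Against TG, TGC3 cells had less signal for 2 ligands, Fasl and Tnfsf8, and more for 1 receptor, Tnfrsf9, with 7 of the 10 members passing neither way. Changes were small, at most 1.46-fold among those that passed. Each change below is a log2 difference, TGC3 minus TG, with limma's standard error after the ± sign (n = 3 each), on signals scaled to each array's 75th percentile, with p adjusted over all 16389 genes (Benjamini-Hochberg). At an adjusted p under 0.05, 1 of 10 members was higher and 2 were lower, 30.0% in all, against 26.0% of all genes (16.6% higher and 9.45% lower). The share is thus near that of the whole array, and the counts show nothing particular to these genes. The median change over the 10 members was -0.22, against -0.01 over all genes, with 8 of the 10 below 0. When arrays were centred on their median instead, the median change of all genes moved to -0.18 and 0 members were higher and 4 lower, while the share of calls that were higher over all genes was 27.4% against 63.7%.

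**Figure D1:**
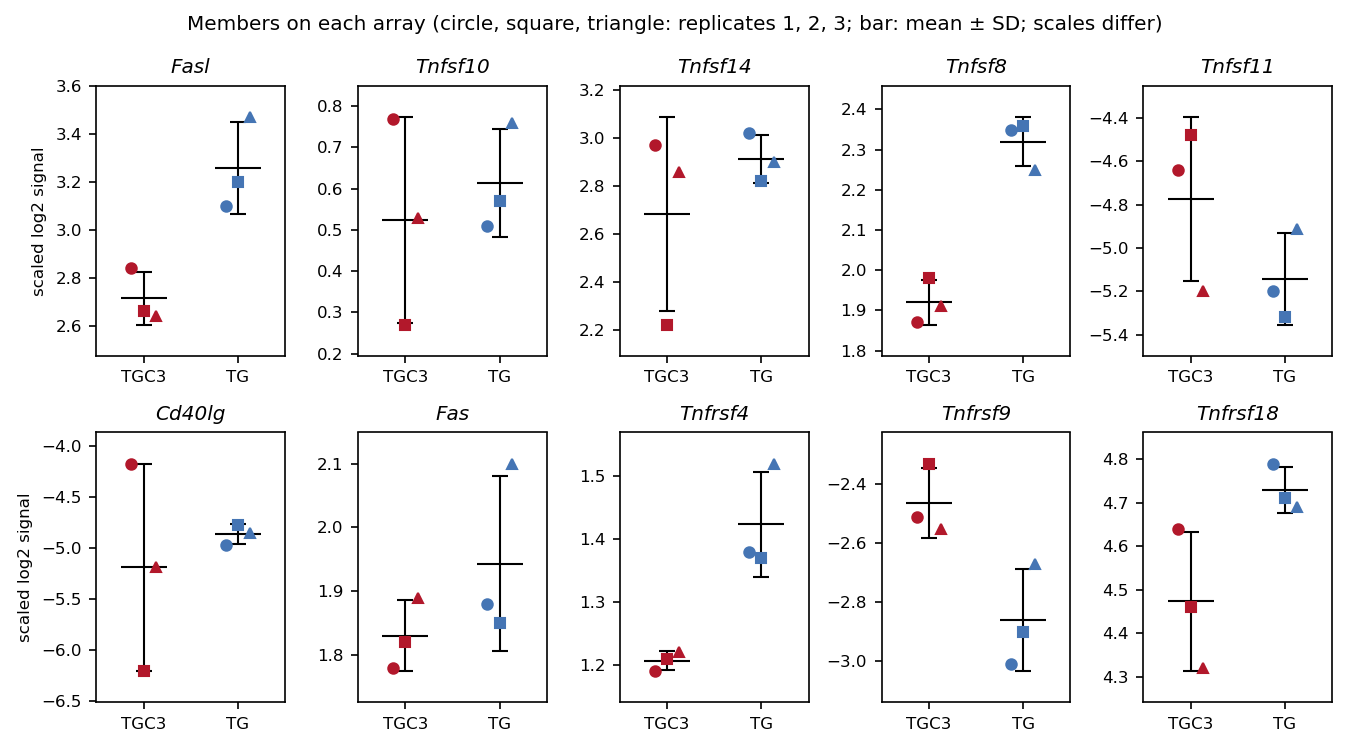
Scaled log2 signal (y axis, a scale of its own in each panel) of the 10 members on the 3 TGC3 and 3 TG arrays, with points for replicates and bars for the mean ± SD. The groups are apart for Fasl, Tnfsf8, Tnfrsf4, Tnfrsf9 and Tnfrsf18, and the second TGC3 replicate lies lowest for Tnfsf10, Tnfsf14 and Cd40lg.

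**Figure D2:**
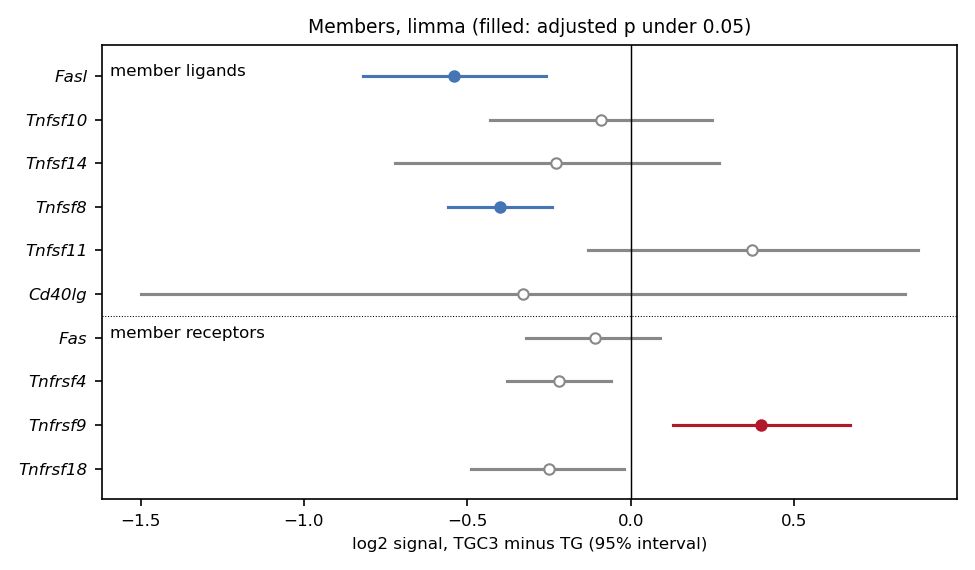
Log2 signal of TGC3 minus TG (x axis) for each member, as the limma estimate with its 95% interval, ligands above receptors. Filled points passed an adjusted p of 0.05: Fasl and Tnfsf8 lie below 0 and Tnfrsf9 above it.

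Fasl encodes Fas ligand, which triggers apoptosis through Fas. It was read by 2 probes whose positions start 6779 bases apart on the minus strand of chromosome 1 (mm9, chr1:163711300-163711359 and chr1:163718079-163718138). The brighter probe, by which the gene was read, gave 4255, 3853 and 3896 intensity units in TGC3 and 4823, 5269 and 6867 in TG. All 3 TGC3 values lay below all 3 TG values, and within TG the third replicate stood above the others. This probe was spotted 10 times on each array, and its spots varied with a coefficient of variation of 3.71% to 5.68% within an array. Scaled log2 values averaged 2.71 ± 0.11 in TGC3 and 3.26 ± 0.19 in TG (SD, n = 3 each). Fasl fell by 0.54 ± 0.11 (95% interval -0.82 to -0.26, limma adjusted p = 0.02), so TG cells gave 1.46 times the signal. Leaving out TGC3 2 (adjusted p = 0.0513), TGC3 3 (0.0637) or TG 2 (0.0539) ended the call. It also ended with no filter (0.0532) and with unrepaired normexp, where the change was -0.16 (0.787).

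The second Fasl probe is shown because it reads a separate stretch of the same transcript.
Fasl probe, mm9 chr1:163718079-163718138, minus strand: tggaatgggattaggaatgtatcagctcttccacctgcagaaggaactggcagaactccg
It gave 1193, 1106 and 1286 units in TGC3 and 1554, 1557 and 1818 in TG, again with no overlap. In limma over all 25103 probes its change was -0.52 ± 0.08 (adjusted p = 0.00744), next to -0.54 ± 0.11 for the brighter probe (adjusted p = 0.0216). Of all probes tested, 22.1% passed this threshold. The 2 probes share the arrays and the RNA and are not independent samples.

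Tnfsf8 encodes CD30 ligand, a costimulatory ligand of activated T cells. Its single probe (mm9, chr4:63494489-63494548) read 2171, 2406 and 2345 units in TGC3 and 2868, 2938 and 2949 in TG. The groups were clearly apart, and each was tight, with scaled log2 means of 1.92 ± 0.05 in TGC3 and 2.32 ± 0.06 in TG (SD, n = 3 each). Tnfsf8 fell by 0.40 ± 0.06 (95% interval -0.56 to -0.24, limma adjusted p = 0.00916), so TG cells gave 1.32 times the signal. It stayed past the threshold without any 1 of the 6 arrays (adjusted p = 0.0158 to 0.0399).

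The other 4 ligands did not pass. Tnfsf14 encodes LIGHT, which binds the receptors HVEM (Tnfrsf14) and the lymphotoxin beta receptor. It read 4668, 2840 and 4518 units in TGC3 and 4562, 4037 and 4624 in TG, so that TGC3 2 alone stood low. Its change was -0.23 ± 0.20 (95% interval -0.72 to 0.27, limma adjusted p = 0.443), and 0.0036 without TGC3 2. Tnfsf10 encodes TRAIL, a death ligand, and showed 1012, 735 and 900 units in TGC3 and 800, 852 and 1048 in TG. The groups overlapped, with TGC3 2 again lowest, and the change was -0.09 ± 0.14 (95% interval -0.43 to 0.25, limma adjusted p = 0.664).

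Tnfsf11 and Cd40lg were close to background. Tnfsf11 encodes RANKL, the ligand that drives osteoclast formation and is also made by T cells. Its brighter probe read 23.8, 27.3 and 17.0 units in TGC3 and 15.3, 14.3 and 20.6 in TG, and its other probe was above background on 0 of 6 arrays. The change was 0.37 ± 0.21 (95% interval -0.13 to 0.88, limma adjusted p = 0.234). It was 0.22 without TGC3 2, 0.58 without TGC3 3 (adjusted p = 0.0534) and 0.13 after quantile normalization. Cd40lg encodes CD40 ligand, by which helper T cells activate B cells and dendritic cells. It read 33.0, 8.25 and 17.0 units in TGC3, above background on 1 of 3 arrays, and 17.9, 21.0 and 21.5 in TG, above it on all 3. Its interval, -1.50 to 0.84 around a change of -0.33 ± 0.48 (limma adjusted p = 0.649), leaves the direction undetermined.

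Among the receptors, Tnfrsf9 encodes a costimulatory receptor (4-1BB) that T cells put out after antigen contact. The probe by which it was read (mm9, chr4:150319106-150319165) gave 104, 122 and 107 units in TGC3 and 69.9, 76.5 and 97.7 in TG. The lowest TGC3 array lay just above the highest TG array. Scaled log2 means were -2.46 ± 0.12 in TGC3 and -2.86 ± 0.17 in TG (SD, n = 3 each), and Tnfrsf9 rose by 0.40 ± 0.11 (95% interval 0.13 to 0.67, limma adjusted p = 0.0452), or 1.32-fold. The call rested on the set of arrays: with 1 array left out it passed only without TG 3 (adjusted p = 0.0302), and without TGC3 1, TGC3 2, TGC3 3, TG 1 or TG 2 the adjusted p was 0.0922, 0.0979, 0.0787, 0.125 and 0.126. It did not pass after quantile normalization (adjusted p = 0.146), cyclic loess (0.144) or centring on the median (0.178), nor with the authors' deposited normalized values (0.145). Tnfrsf9 also missed the threshold with no filter (0.101) and with the mean of its probes (0.0753). With unrepaired normexp its change was -0.40 (0.744). Of the 13 alternatives on all arrays it passed in 5. Its signals were low, at 69.9 to 122 units.

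The other Tnfrsf9 probes do not add a second reading of that rise. A probe a short way downstream (mm9, chr4:150319552-150319611) read 38.0, 29.4 and 39.6 units in TGC3 and 29.9, 25.3 and 35.7 in TG, with overlapping groups and a change of 0.17 ± 0.15 (limma adjusted p over probes = 0.441). The third probe, for the transcript AK170670, lay well above background on 0 of 6 arrays. Its last 40 bases are the first 40 of the second Tnfrsf9 window printed above, so it reads upstream of that start. A transcript holding that stretch was thus not measured above background in either group.

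Tnfrsf4 and Tnfrsf18 encode the costimulatory receptors OX40 and GITR and are neighbours on chromosome 4 (probes at mm9, chr4:155390635-155390694 and chr4:155402849-155402908). Tnfrsf4 read 1351, 1409 and 1453 units in TGC3 and 1459, 1480 and 1781 in TG, apart by a narrow margin in units. On the scaled log2 values Tnfrsf4 was at most 1.22 in TGC3 and at least 1.37 in TG. Its change was -0.22 ± 0.07 (95% interval -0.38 to -0.06), with a limma adjusted p of 0.0567 that did not pass. Tnfrsf18 read 14840, 13457 and 12433 units in TGC3 and 15528, 14958 and 15982 in TG, also with no overlap. On the scaled log2 values Tnfrsf18 was apart by a narrow margin, at most 4.64 in TGC3 and at least 4.69 in TG. Its change was -0.25 ± 0.10 (95% interval -0.49 to -0.02, limma adjusted p = 0.101). Over all members, groups did not overlap for 5 of 10 genes, 1 higher and 4 lower, against 46.7% of all genes (24.3% higher and 22.4% lower). Both receptors passed as lower when arrays were centred on the median (adjusted p = 0.0172 for Tnfrsf4 and 0.0225 for Tnfrsf18), a setting that lowered all genes, and when aberrant local backgrounds were replaced ahead of normexp (0.0290 and 0.0496). Tnfrsf4 also passed with array weights (0.0349) and with limma's trended robust variance (0.0367). Relative to the median of all genes the changes were -0.21 and -0.24 under both scalings. The scalings differ only by a constant for each array, so these values had to be the same under both. Both receptors are known to be high on regulatory T cells, whose factor Foxp3 was not above background on any array. Of the 3 other markers of those cells, Il2ra was higher (0.41 ± 0.12, limma adjusted p = 0.0484). Ctla4 (0.69 ± 0.23, limma adjusted p = 0.0718) and Ikzf2 (-0.49 ± 0.17, limma adjusted p = 0.0803) passed neither way and pointed in opposite directions. Il2ra and Ctla4 were read at low signals, of 20.1 to 59.8 units. The part of regulatory T cells in the changes of Tnfrsf4 and Tnfrsf18 was not tested.

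Fas, the death receptor for Fas ligand, did not pass. Its brighter probe, with 10 spots per array, read 2042, 2155 and 2302 units in TGC3 and 2073, 2062 and 2651 in TG. The groups overlapped, and the change was -0.11 ± 0.08 (95% interval -0.32 to 0.09, limma adjusted p = 0.361). The other probe, for the transcript variant NM_001146708, read 141, 145 and 155 units in TGC3 and 124, 135 and 118 in TG. Its change was 0.17 ± 0.09 (limma adjusted p over probes = 0.240), with no overlap between groups, so that the 2 probes pointed in opposite directions and neither passed. Thus the ligand was lower in TGC3 while its receptor passed neither way. Whether these 2 changes differ from one another was not tested.

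The known partners of the members were mostly not measurable in these cells. Cd40 (the receptor for CD40 ligand), Ltbr (a receptor for LIGHT), Tnfrsf11a (the receptor for RANKL) and Tnfsf4 (the OX40 ligand) were well above background on 0 of 6 arrays. Tnfrsf8 (CD30, the receptor for CD30 ligand) and Tnfsf18 (the GITR ligand) were above it on 1 array, and Tnfrsf11b, a decoy receptor for RANKL, on 2. Tnfsf9, the ligand of the receptor encoded by Tnfrsf9, was measured in both groups with a change of 0.02 ± 0.19 (95% interval -0.45 to 0.49, limma adjusted p = 0.948). Tnfrsf14, the second receptor for LIGHT, had a change of -0.23 ± 0.09 (limma adjusted p = 0.101). Tnfrsf10b, the mouse death receptor for TRAIL, had a change of -0.23 ± 0.17 at its brightest probe (limma adjusted p = 0.371), while its other 2 probes were lower (-0.39 ± 0.08 and -0.67 ± 0.08, adjusted p over probes 0.0211 and 0.00474). The mean of its probes passed as lower (-0.43, limma adjusted p = 0.0266), and with 1 array left out the brightest probe gave -0.11 without TGC3 1 and -0.41 without TGC3 3.

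Receptors of the superfamily outside the 10 members moved in both directions. Of 23 listed, 12 were tested, and 4 were higher and 1 lower in TGC3 (41.7% called, against 26.0% of all genes), with a median change of -0.18. Tnfrsf25, a death-domain receptor of T cells that costimulates them when it binds TL1A (Tnfsf15), gave 13061, 9055 and 15035 units in TGC3 and 4408, 5556 and 4892 in TG. Every TGC3 array was well above every TG array, and Tnfrsf25 rose by 1.24 ± 0.20 (limma adjusted p = 0.00909), or 2.36-fold, the largest change among the 10 members and the 40 further superfamily and signalling genes tested. Its other probe also passed (1.09 ± 0.26, adjusted p over probes = 0.0327), and the gene passed without any 1 array (0.00541 to 0.0340). Its ligand gene Tnfsf15 was above background on 0 of 6 arrays.

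Tnfrsf13c, the BAFF receptor known from B cells, gave 361, 424 and 355 units in TGC3 and 160, 165 and 250 in TG, and rose by 0.95 ± 0.16 (limma adjusted p = 0.01). On the same arrays 3 of the 4 tested B cell markers (6 listed) were higher and 0 lower, against 16.6% and 9.45% of all genes. Among the higher ones Ms4a1 was above background on 3 TGC3 arrays and 0 TG arrays, so that the filter set its direction. Pax5 and Blk were above background on 0 of 6. The summed scaled signal of the B cell markers was 5.45 to 6.18 in TGC3 and 5.34 to 6.57 in TG. The part of B cell RNA in the Tnfrsf13c change was not tested. Ngfr, the low-affinity receptor for nerve growth factor (0.57 ± 0.11, limma adjusted p = 0.0162), and Tnfrsf22, a mouse decoy receptor for TRAIL (0.25 ± 0.06, limma adjusted p = 0.0328), also rose, both at low signals of 34.8 to 162 units. With 1 array left out, the Ngfr call ended when TG 2 was dropped (adjusted p = 0.0543), and Tnfrsf22 passed only without TG 3 (0.0491, against 0.0641 to 0.108 in the other sets) and missed the threshold after quantile normalization (0.111). Cd27, a costimulatory receptor for CD70, gave 3003, 2903 and 3237 units in TGC3 and 3803, 3632 and 4176 in TG, and fell by 0.40 ± 0.07 (limma adjusted p = 0.00912). It passed without any 1 array (adjusted p = 0.0200 to 0.0376).

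Of 12 other ligands, 5 were tested and 0 passed in limma, against 26.0% of all genes, with 1 higher and 1 lower at an unadjusted p under 0.05 (22.5% and 17.5% of all genes). Tnf itself gave 1150, 909 and 863 units in TGC3 and 618, 629 and 770 in TG, with no overlap and a change of 0.47 ± 0.14 (limma adjusted p = 0.0524). Lta and Ltb, which encode lymphotoxin alpha and beta, had changes of -0.48 ± 0.18 and -0.46 ± 0.19 (limma adjusted p = 0.101 and 0.130). In both, TGC3 2 was the lowest array, with 57382 units for Ltb against 89414 and 91442 on the other TGC3 arrays and 99561 to 106477 in TG.

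Among adaptors and regulators downstream of the receptors, Traf1, Traf3, Traf5 and Cflar fell. All 23 listed were tested in limma, and 0 were higher and 4 lower (17.4% called, against 26.0% of all genes), with a median change of -0.11 and 19 of 23 changes below 0. The share of all genes below 0 was 51.4%. At an unadjusted p under 0.05, 1 was higher and 7 were lower, against 22.5% and 17.5% of all genes. Traf1, an adaptor induced by NF-kappaB that binds several costimulatory receptors, gave 15933, 15954 and 14800 units in TGC3 and 19761, 19321 and 22589 in TG. It fell by 0.46 ± 0.07 (limma adjusted p = 0.00862) and passed without any 1 array (0.0194 to 0.0333). Cflar encodes c-FLIP, which holds back caspase-8 at death receptors, and fell by 0.43 ± 0.09 (limma adjusted p = 0.0215) at its brightest probe. Cflar did not pass without TG 1, TG 2 or TG 3 (adjusted p = 0.0647, 0.0608 and 0.0637). Only 1 of its 7 probes passed (-0.43 to -0.01), and the mean over them did not (-0.16, adjusted p = 0.0932). Traf3, which restrains the alternative NF-kappaB pathway (-0.35 ± 0.09, limma adjusted p = 0.0391), and Traf5, an adaptor of OX40 and CD27 (-0.24 ± 0.07, limma adjusted p = 0.0459), fell in the full set of arrays but passed in 0 of the 6 sets with 1 array left out (adjusted p = 0.0553 to 0.115 and 0.0718 to 0.127). Neither passed after quantile normalization (0.0822 and 0.0866). Traf4 did not pass at its brightest probe (-0.64 ± 0.27, limma adjusted p = 0.129), while its other probe was lower (-0.43 ± 0.08, limma adjusted p over probes = 0.0152). Cyld did not pass at its brightest probe (-0.09 ± 0.10, limma adjusted p = 0.529), while 1 of its 3 probes was lower (-0.42 ± 0.09, limma adjusted p over probes = 0.0246). Of all probes tested, 22.1% passed this threshold.

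**Figure D3:**
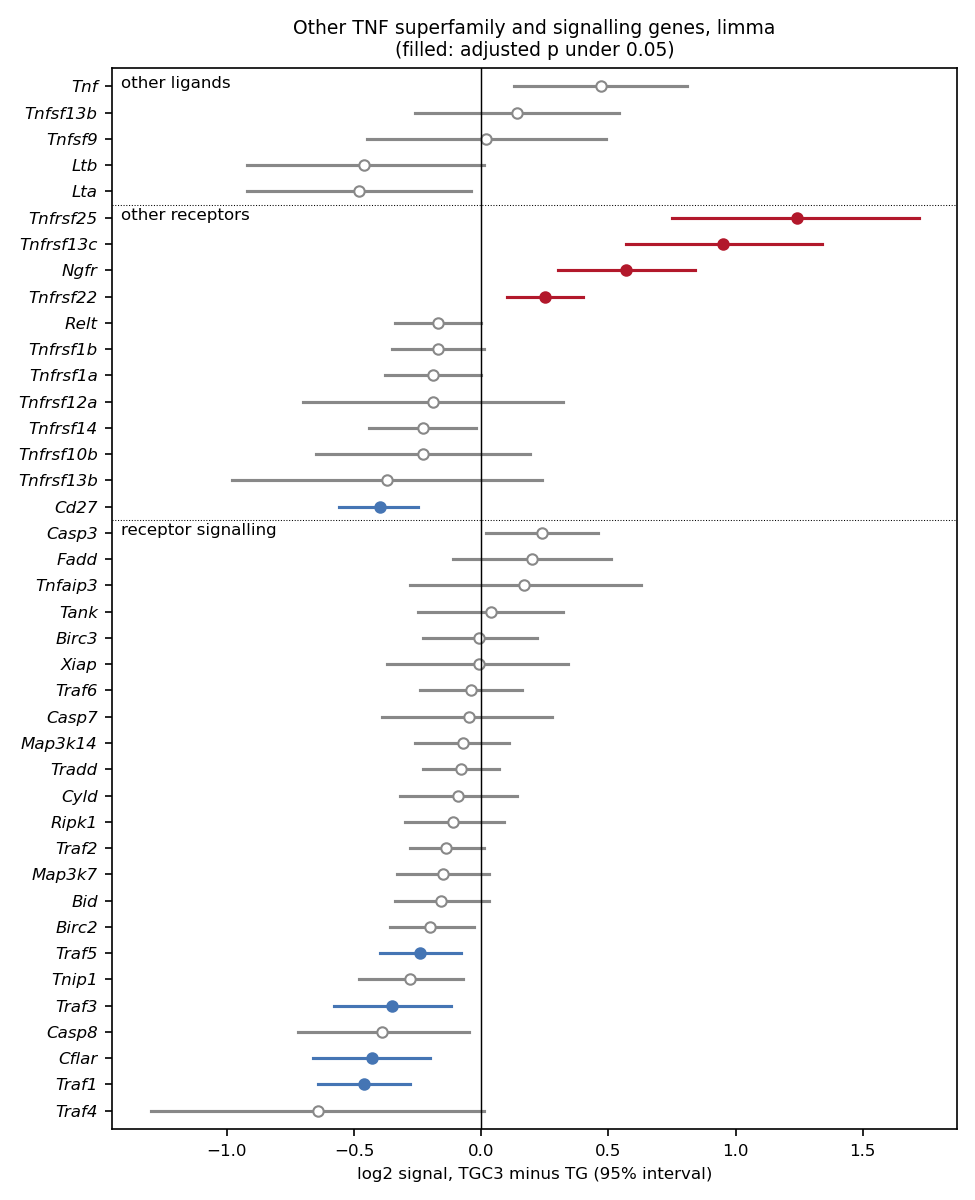
Log2 signal of TGC3 minus TG (x axis) with 95% intervals from limma for the 40 other superfamily and signalling genes tested, in 3 lists and ordered by change within each. Filled points passed an adjusted p of 0.05: Tnfrsf25, Tnfrsf13c, Ngfr and Tnfrsf22 above 0, and Cd27, Traf1, Cflar, Traf3 and Traf5 below it.

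Some markers moved on the same arrays as the members, where 16.6% of all genes were higher and 9.45% lower. All 5 tested markers of CD8 T cells had changes below 0, and Cd3d (-0.25 ± 0.07, limma adjusted p = 0.0480) and Cd3g (-0.29 ± 0.08, limma adjusted p = 0.0415) passed. Their summed scaled signal was 574 to 623 in TGC3 and 635 to 707 in TG. Neutrophil markers summed to 1.51 to 7.96 in TGC3 and 0.027 to 0.0644 in TG. The 3 of 6 listed that were tested met the filter through TGC3 alone, being above background on 3 TGC3 arrays and on 0 (S100a8) or 1 (S100a9 and Retnlg) of the TG arrays, so their direction was set by the filter. Macrophage and monocyte markers summed to 1.09 to 3.18 in TGC3 and 0.70 to 0.831 in TG, with 2 higher (Lyz2 and Marco) of 5 tested and 7 listed. Csf1r, Cd68 and Cd14 passed neither way. Dendritic cell markers summed to 14.3 to 23.7 in TGC3 and 18.4 to 20.9 in TG. That sum was mostly Itgax, at 8317 to 13801 units in TGC3 and 10096 to 12593 in TG, which passed neither way. Of 6 listed and 4 tested, 2 were higher (Zbtb46 by 1.36 and Flt3 by 0.42, limma adjusted p = 0.00169 and 0.0164), both at 26.4 to 445 units. Siglech and Clec9a were above background on 0 arrays. Endothelial markers summed to 0.664 to 0.722 in TGC3 and 0.561 to 0.654 in TG, with 1 higher of 2 tested and 4 listed (Stab2 by 0.72, limma adjusted p = 0.00276) and Cdh5 and Kdr on 0 arrays. The lysozyme gene Lyz2 was highest on TGC3 2 (1364 units, against 193 and 352 on the other TGC3 arrays and 24.4 to 90.3 in TG). All 3 tested neutrophil markers were also highest there: S100a8 (976 units, against 169 and 333), S100a9 (3678, against 696 and 1429) and Retnlg (156, against 22.1 and 41.4). Markers of other lists went both ways on TGC3 2, with Itgax and Ms4a1 highest and Cd79a and Cd79b lowest of the TGC3 arrays. On that array Tnfsf14, Tnfsf10, Cd40lg, Lta and Ltb were lowest, while Tnfsf8, Tnfsf11 and Tnfrsf9 were the highest of the TGC3 arrays. Of the CD8 T cell markers, Cd3d and Cd8b1 were the highest of the TGC3 arrays there and Cd8a was the lowest. The part of the cell types above in the changes of the members, Lta and Ltb was not tested. Without TGC3 2 the changes were -0.52 for Fasl, -0.43 for Tnfsf8 and 0.33 for Tnfrsf9.

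**Figure D4:**
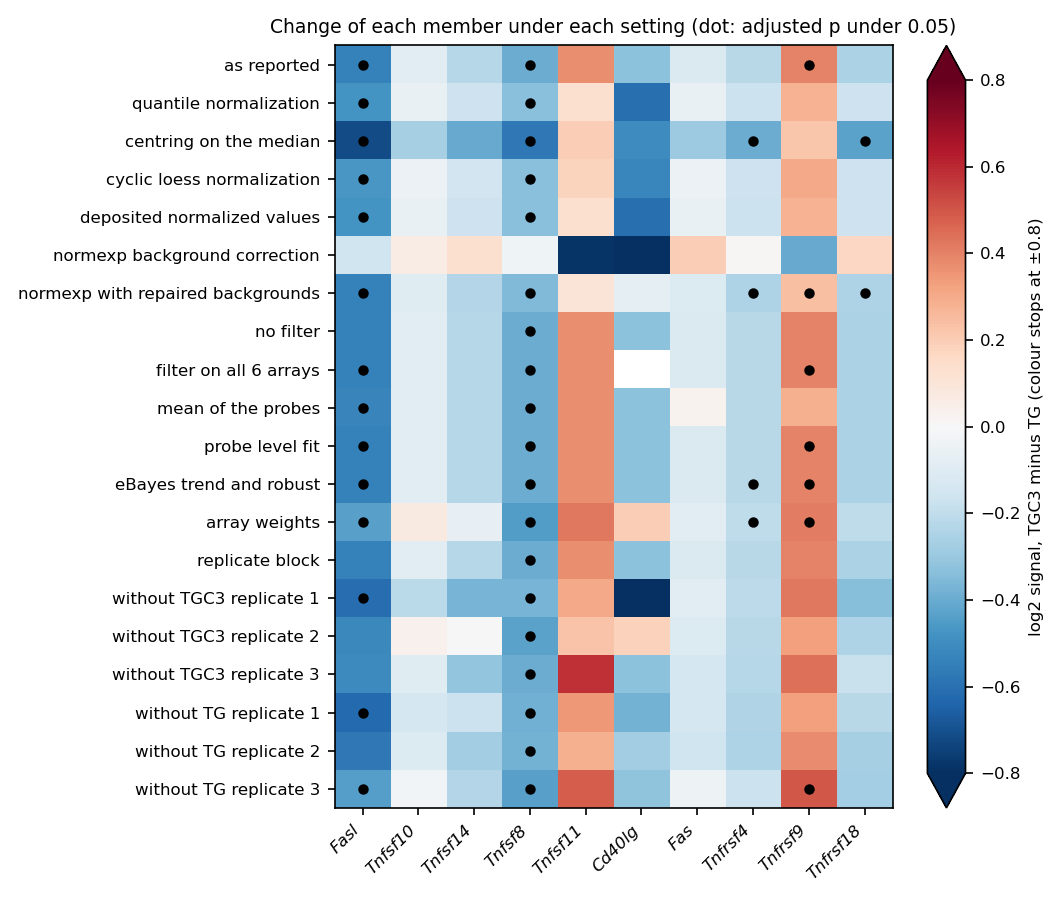
Log2 signal of TGC3 minus TG (colour, stopping at ±0.8) for each member (columns) under the reported setting and 19 alternatives (rows), with dots where the adjusted p was under 0.05. Tnfsf8 passed under every alternative but the normexp background correction, and Tnfsf10, Tnfsf14, Tnfsf11, Cd40lg and Fas passed under none. Cd40lg has no value where all 6 arrays had to be above background.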

How the data were processed

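RNA of 3 TGC3 and 3 TG samples was labelled with Cy3 and read on Agilent arrays, 1 per sample, grouped by the genotype code in the titles. Per the file headers, Feature Extraction 10.7.3.1 produced the files (the submitters' processing notes name 10.7.1.1), and the processed signal is a linear intensity from which background had been subtracted and a surface trend removed. The authors' deposited matrix holds log2 values with a median of 5.57 per array. Its normalization is not given in the sources used here, and it served as an alternative. Of the per-sample columns, 0 stayed unmapped.

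No spot was saturated. Probes with non-uniform spots (11) were left out, as were single repeat spots marked as population outliers. Log2 signals were scaled by each array's 75th percentile. A probe was kept if 3 of 6 arrays or more had it well above background, and the brightest such probe stood for its gene. Names were updated from RefSeq by accession (27668 probes), symbol (5589) or synonym (471), and 7446 kept the file's name. Members were matched by the name in the files. The comparison used limma 3.58.1 in R 4.3.3, two-sided, with an adjusted p under 0.05. On simulated data it recovered 50 of 100 genes changed 1.5-fold and 78 of 100 changed 2-fold, with 7 false calls. A member that did not pass was therefore not shown to be unchanged. Named genes are all members, their known partners, listed genes that passed, and Cxcr3. Tnf, Lta, Ltb, Tnfsf15, Traf4 and Cyld were named after their values were seen. Members and lists were chosen with earlier results of these data known. Replicate numbers did not pair samples (correlations of deviations 0, -0.08 and -0.10). Alternatives changed the normalization, background, filter, probe rule, variance model and arrays. Precision is limited by having 3 arrays a group.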

Additional observations from a re-analysis of the deposited data

How the results depend on the processing

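Members, other superfamily and signalling genes, and all genes gave 1, 4 and 2720 higher and 2, 5 and 1548 lower calls in TGC3 as reported. In the same order, quantile normalization gave 0, 3 and 2200 higher and 2, 3 and 1411 lower, cyclic loess 0, 4 and 2300 higher and 2, 3 and 1222 lower, and the authors' deposited values 0, 3 and 2200 higher and 2, 3 and 1407 lower. Centring on the median gave 0, 3 and 1801 higher and 4, 19 and 4766 lower. No filter gave 0, 3 and 2092 higher and 1, 2 and 578 lower (median change of all genes 0.13), and the mean of the probes 0, 4 and 2690 higher and 2, 7 and 1381 lower. Array weights gave 1, 5 and 3259 higher and 3, 11 and 2414 lower. Normexp with the 7 aberrant TG 3 backgrounds replaced gave 1, 4 and 2040 higher and 4, 5 and 1869 lower. Without that repair limma gave 0, 0 and 0 higher and 0, 0 and 1 lower, with 507 genes at an unadjusted p under 0.05. With 1 array left out, higher calls were 0 to 1, 2 to 4 and 1752 to 2356, and lower calls 1 to 2, 2 to 5 and 573 to 1505. With the replicate number as a block, although the numbers did not pair samples, they were 0, 2 and 1795 higher and 1, 3 and 554 lower, and Fasl (adjusted p = 0.0665) and Tnfrsf9 (0.0979) did not pass. Unfiltered, Fasl also missed the threshold (0.0532).

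Over 19 alternatives the members kept direction and their side of the threshold in 151 cases, which include members that passed neither way. They lost the call with the same sign in 19, gained one in 6 and changed sign in 13. The sign changes include Tnfrsf9 with unrepaired normexp, where its call also ended. Of the 13 alternatives on all arrays, Fasl passed in 10, Tnfsf8 in 12 and Tnfrsf9 in 5. Of the 6 sets with 1 array left out, they passed in 3, 6 and 1. The sign changed with unrepaired normexp for Fas (0.20), Tnfrsf18 (0.16), Tnfrsf4 (0.0083), Tnfrsf9 (-0.40), Tnfsf10 (0.062), Tnfsf11 (-0.78), Tnfsf14 (0.13), Ngfr (-0.52), Tnfrsf22 (-0.34), Traf5 (0.15) and Tnfsf9 (-0.77). Fas changed sign with the mean of the probes (0.027), Cd40lg with array weights (0.20) and Tnfsf10 with array weights (0.072). With 1 array left out, Cd40lg ranged from -0.84 to 0.18, Tnfsf10 from -0.21 to 0.0355 and Tnfsf14 from -0.37 to 0.0036, each above 0 only without TGC3 2. Tnfsf9 was -0.15 after quantile normalization and after median centring, -0.14 after loess, -0.16 in the deposited values, -0.017 with repaired normexp, and -0.12 to 0.18 with 1 array left out, below 0 without TGC3 1, TGC3 3 or TG 3. The cause of these changes was not tested. Signal near background limits what can be said of Tnfsf11 and Cd40lg, and Cd40lg gave no value with a filter on all 6 arrays. Tnfrsf9 was also read at a low signal, of 69.9 to 122 units.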
